A study of Mus musculus with 8 samples.

Results

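The muscle myosin heavy chain genes were examined in brown adipose tissue of mice that lack mir-193b (Null) and of wild-type mice (WT). The set consists of 8 listed genes, Myh1, Myh2, Myh3, Myh4, Myh6, Myh7, Myh7b and Myh8, out of 22552 genes in the mRNA table, and all 8 were found there by symbol. Null mice had the genotype mir-193b -/- and WT mice the genotype mir-193b +/+. All were 2 months old, and their strain is given as 129SV::FVB/N::C57BL/6. As the labels' protocols describe, the line came from a floxed mir-193b allele and a Cre transgene driven by the MMTV promoter, which was bred out, and the title names mir-365-1 as lost together with mir-193b. Messenger RNA was sequenced in 3 Null and 3 WT samples, but the authors deposited 1 FPKM value per gene and genotype, here called the Null pool and the WT pool. FPKM counts fragments relative to transcript length and to the mapped fragments of the library, so that levels of different genes can be compared. MicroRNAs were sequenced in 1 Null and 1 WT library. No value below therefore has a replicate error, no test between genotypes could be made, and a difference carried by a single sample could not be seen.

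Myosin heavy chains are the motor proteins of the thick filament. Each carries a head that binds actin and splits ATP and a long tail that packs into the filament, and each binds a pair of light chains at its neck. The isoform sets how fast a fibre shortens: Myh4 encodes the fastest adult type (IIb), Myh1 type IIx and Myh2 type IIa, while Myh7 encodes the slow type shared by slow skeletal fibres and heart. Myh6 is the fast isoform of the heart, Myh7b an ancient relative whose gene carries a microRNA, and Myh3 and Myh8 are the embryonic and perinatal isoforms. Brown fat cells arise from a lineage related to skeletal muscle but do not build sarcomeres.

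Promoters of the 3 adult fast genes are shown first, because these genes lie side by side and all 3 were lower in Null. In the annotation of chromosome 11 the skeletal genes follow in the order Myh3, Myh2, Myh1, Myh4, Myh8 and Myh13. The sequences are from RefSeq (GRCm38.p6), plus strand, and run from 250 bases before the annotated start of the gene to 50 after it. Capitals mark the longest run of bases common to all 3.
Myh4, chr11:67237562-67237861: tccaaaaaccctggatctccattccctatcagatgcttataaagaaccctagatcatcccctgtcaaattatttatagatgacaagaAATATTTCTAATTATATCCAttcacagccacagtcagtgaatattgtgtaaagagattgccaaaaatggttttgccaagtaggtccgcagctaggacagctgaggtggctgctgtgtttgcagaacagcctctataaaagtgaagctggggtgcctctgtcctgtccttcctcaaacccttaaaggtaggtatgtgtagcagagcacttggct
Myh1, chr11:67199852-67200151: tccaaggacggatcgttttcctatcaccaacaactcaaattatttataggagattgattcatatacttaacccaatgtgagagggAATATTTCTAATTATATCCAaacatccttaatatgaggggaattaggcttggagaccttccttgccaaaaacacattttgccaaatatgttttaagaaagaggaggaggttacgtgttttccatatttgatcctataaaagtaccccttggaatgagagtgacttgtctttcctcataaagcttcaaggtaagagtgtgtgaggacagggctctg
Myh2, chr11:67170777-67171076: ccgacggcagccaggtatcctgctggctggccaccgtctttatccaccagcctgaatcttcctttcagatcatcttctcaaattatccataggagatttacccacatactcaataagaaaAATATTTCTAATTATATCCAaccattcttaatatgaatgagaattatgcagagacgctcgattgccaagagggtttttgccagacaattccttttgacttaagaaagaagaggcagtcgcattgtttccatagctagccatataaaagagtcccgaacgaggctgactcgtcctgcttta

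The shared run is 20 bases long and begins 163 bases before the start of Myh4, 165 before that of Myh1 and 130 before that of Myh2. Of 32851 promoter windows of the same length only these 3 hold it in full on either strand. The neighbouring Myh8 holds a stretch of 14 of its bases, beginning 54 bases before the start, and the 4 genes are the only ones with that stretch. Both stretches were picked because these windows share them, so the counts are not a test. The letters TATAAA, the core of the TATA box, were searched on both strands and stood 31 bases before the start of Myh4 and 32 before that of Myh1. In Myh2 the window holds TATAAA 10 bases after the annotated start. Over all windows 13.6% hold TATAAA, and windows of 6 of the 8 myosin genes do. A match to the consensus of MEF2, a muscle transcription factor, was found in Myh4 (182 bases before the start), Myh1 (211) and Myh8 (99), and in 3.19% of all windows. That match overlaps a reversed TATAAA in all 3. A CArG box, the consensus of serum response factor, was found in Myh4, 104 bases before the start, and in 1.63% of all windows. The MCAT letters CATTCC were found on one or the other strand in Myh1, Myh4, Myh6 and Myh7, and in 14.7% of all windows. E-boxes (CANNTG), the letters bound by myogenic factors, are in windows of 6 of the 8 genes and in 72.3% of all windows. These are letter matches and not measured binding, and their bearing on the mRNA levels was not tested. The windows of Myh7 hold none of the shared run, TATAAA or the MEF2 match. Letters close to TATAAA were not searched.

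All 3 adult fast isoforms were lower in Null. Myh4 had 40.2 FPKM in the Null pool, against 106 FPKM in the WT pool, and was the most abundant of the 8 genes in both. Myh1 had 5.49 FPKM in Null and 21.4 FPKM in WT. Myh2 had 2.53 FPKM in Null and 11.8 FPKM in WT, the lowest of the 4 more abundant members in both pools. The Null pool thus held 38.0% of the WT level of Myh4, 25.6% of that of Myh1 and 21.5% of that of Myh2. On the scale of log2((Null + 1)/(WT + 1)) of FPKM, which understates differences of low genes, the values were -1.38 for Myh4, -1.79 for Myh1 and -1.86 for Myh2.

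The slow isoform was lower as well. Myh7 had 4.94 FPKM in the Null pool and 18.3 FPKM in the WT pool, 27.0% of the WT level and a log2 ratio of -1.70. Its ratio lay between those of Myh4 and Myh1. The order of the 4 levels, Myh4 over Myh1 over Myh7 over Myh2, was the same in both pools, although Myh1 and Myh7 stood close together, Myh7 at 89.9% of Myh1 in Null and at 85.1% in WT. Without replicates it cannot be said whether neighbours in this order differ.

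The other 4 isoforms were below 1 FPKM in both pools. Myh7b had 0.522 FPKM in Null and 0.654 FPKM in WT. Myh6, the cardiac isoform, had 0.143 FPKM in Null and 0.168 FPKM in WT. The perinatal Myh8 had 0.116 FPKM in Null and 0.262 FPKM in WT, and the embryonic Myh3 had 0.0293 FPKM in Null and 0.0578 FPKM in WT. All 4 were numerically lower in Null, and their log2 ratios lay between -0.18 and -0.03 with the pseudocount of 1 FPKM. With no pseudocount the log2 ratio was -1.17 for Myh8, -0.98 for Myh3, -0.32 for Myh7b and -0.23 for Myh6. The number of reads behind such levels is unknown. Of the same class outside the list, Myh13, known from eye muscle, had 0.00599 FPKM in Null and 0.0564 FPKM in WT, and Myh15 was listed at 0 in Null and at 0.0279 FPKM in WT.

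**Figure D1:**
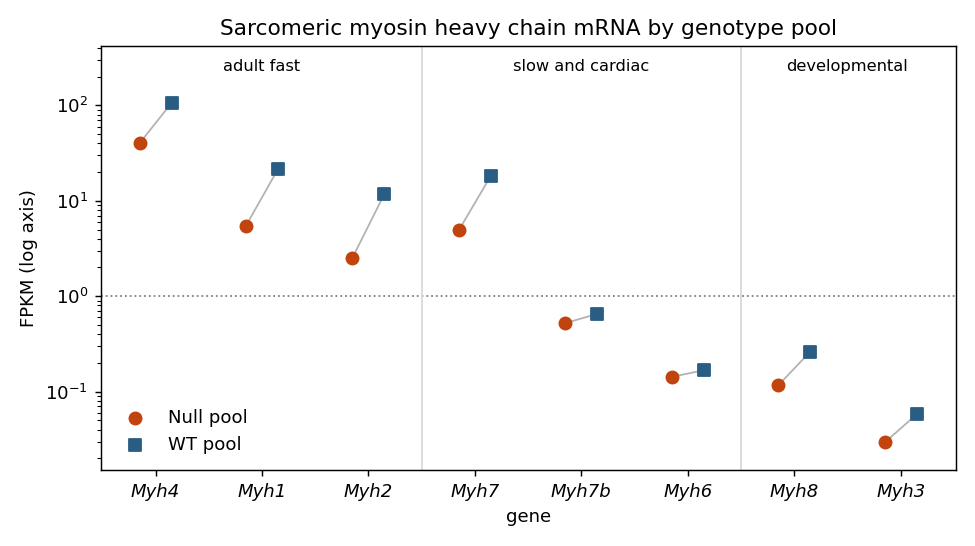
FPKM (log axis) of the 8 genes in the Null pool (circles) and the WT pool (squares), 1 value per genotype with no error; the dotted line marks 1 FPKM. Myh4, Myh1, Myh2 and Myh7 stand above the line in both pools, at 2.53 to 40.2 FPKM in Null and 11.8 to 106 FPKM in WT, and the other 4 below it.

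Summed over the 8 genes, the Null pool had 53.9 FPKM, against 158 FPKM in the WT pool, a log2 ratio of -1.54. Myh4 alone made up 62.8% of this difference, Myh1 15.3%, Myh7 12.7% and Myh2 8.86%. The 4 more abundant members passed the filter of a mean of at least 1 FPKM, and each was above 1 FPKM in both pools. All 4 were lower by 2-fold or more, as were 1.65% of the 11597 genes that passed, of which 49.4% were lower by any amount. Another 2.17% of genes were higher by 2-fold or more. Counted from the lowest log2 ratio, with small RNA genes and genes listed at 0 in a pool left out, Myh2 was number 4 of 11421 genes, Myh1 number 5, Myh7 number 9 and Myh4 number 33. Among all 11597 genes, with those included, they were number 55, 56, 60 and 88 in the same order. The median log2 ratio of all genes was 0.01. When each column was scaled to the same total, the median of the same genes was -0.19 and the sum of the 8 genes had a log2 ratio of -1.76. Of the 11597 genes 252 were higher and 191 lower by 2-fold or more as deposited, against 176 higher and 416 lower with equal totals, where 12461 genes passed the filter. Coding sequences of these genes are alike and the handling of reads that match several of them is not given in the sources used here, so the split between isoforms is uncertain, in particular among Myh1, Myh2, Myh4 and Myh8.

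The isoform mix was dominated by Myh4 in both pools, and its share was higher in Null. Myh4 held 74.5% of the summed FPKM in Null and 66.8% in WT. Myh1 held 10.2% in Null and 13.5% in WT, Myh2 held 4.69% in Null and 7.44% in WT, and Myh7 held 9.15% in Null and 11.5% in WT. Put as ratios of levels, there were 15.9 Myh4 transcripts per Myh2 transcript in Null and 8.97 in WT. For Myh4 over Myh7 the ratio was 8.14 in Null and 5.80 in WT. Myh1 over Myh2 differed less, at 2.17 in Null and 1.82 in WT.

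By class, the adult fast isoforms together held 89.3% in Null and 87.8% in WT. Slow and cardiac isoforms held 10.4% in Null and 12.0% in WT, and the developmental ones 0.270% in Null and 0.202% in WT. The higher fast share in Null rested on Myh4. Among the remaining 7 genes the fast share (Myh1 and Myh2) was 58.3% in Null and 63.1% in WT, and that of Myh7 was 35.8% in Null and 34.7% in WT. The 4 rare isoforms together held 1.50% in Null and 0.721% in WT, since their levels differed less than those of the others. Shares carry no interval, because the table gives no counts.

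**Figure D2:**
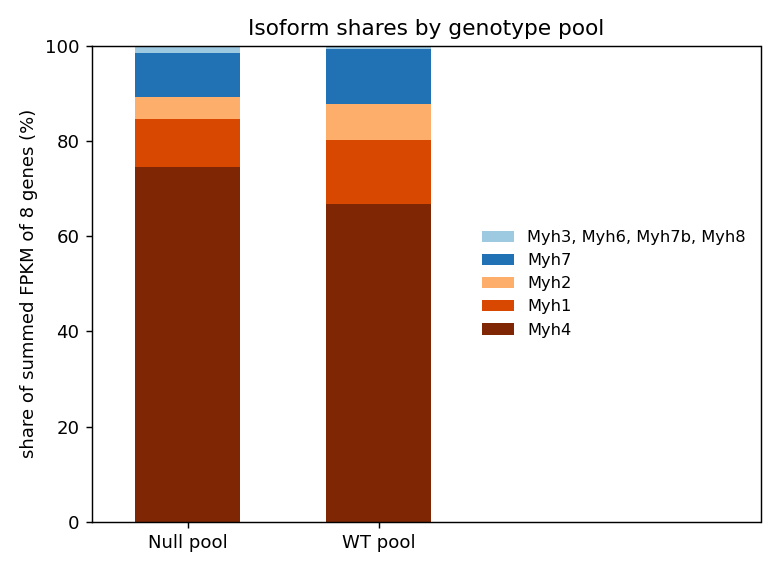
Share (percent) of each isoform in the summed FPKM of the 8 genes, with the Null pool on the left and the WT pool on the right; 1 value per genotype, no error. Myh4 fills 74.5% of the Null bar and 66.8% of the WT bar, and Myh2 fills 4.69% of the Null bar and 7.44% of the WT bar.

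The heavy chains of cells other than striated muscle served as relatives of similar size. Of the 4, the non-muscle genes Myh9, Myh10 and Myh14 and the smooth muscle gene Myh11, all were lower in Null but none by 2-fold. Myh9, which drives contraction of the cell cortex, had 18.7 FPKM in Null and 25.9 FPKM in WT (log2 ratio -0.45). Myh14 had 1.92 FPKM in Null and 3.55 FPKM in WT (-0.64), the lowest of the 4, and their median was -0.44. The 8 sarcomeric genes together stood at 1.95 times the sum of these 4 genes in Null and at 4.06 times in WT, which puts their log2 ratio at -1.05 relative to that of these relatives.

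Other genes of the thick filament were lower too, while the light chains were split. Of 9 thick filament partners 8 passed the filter, and all 8 were lower by 1.5-fold or more, against 6.75% of all genes. The median log2 ratio was -1.03, and 4 were 2-fold lower or more. Mybpc1, a myosin-binding protein C, had 12.2 FPKM in Null and 33.5 FPKM in WT (log2 ratio -1.39). Mybpc2, the fast form of that protein, had 9.42 FPKM in Null and 21.1 FPKM in WT. Myom1, a protein of the M-band that ties thick filaments together, had 6.91 FPKM in Null and 13.8 FPKM in WT. Mybpc1 was thus near Myh4, which had a log2 ratio of -1.38. With the pseudocount none of the partners had a log2 ratio as low as those of Myh1, Myh2 and Myh7. As deposited, without it, Mybph was lower than these, at 0.346 FPKM in Null and 1.87 FPKM in WT, and is named after its values were seen.

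The light chains bind the neck of the heavy chain. Of 7 sarcomeric light chain genes 6 passed the filter, with 3 lower and 3 higher in Null (6 lower with equal totals, and 5 lower and 1 higher with quantile normalization) and a median log2 ratio of -0.20. The regulatory fast light chain Mylpf had 513 FPKM in Null and 481 FPKM in WT (0.09). The essential fast light chain Myl1 had 194 FPKM in Null and 179 FPKM in WT (0.12), and both were lower in Null with equal totals (-0.12 and -0.10) and with quantile normalization (-0.11 and -0.05). The slow light chains Myl2 and Myl3 were lower, at 78.4 FPKM in Null and 125 FPKM in WT for Myl2 and at 28.3 FPKM in Null and 48.5 FPKM in WT for Myl3. The light chain genes together gave 15.4 transcripts per heavy chain transcript in Null and 5.41 in WT. Light chain mRNAs are short and heavy chain mRNAs long, and the part of transcript length in this difference was not tested.

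Genes of fast and slow fibres were compared with the isoforms of the same fibre type. The gene lists used here share genes, among them Mylpf, Myl1, Myl2, Myl3, Mybpc2 and Myoz1, so their counts are not independent. Of 12 fast fibre partners 10 were lower in Null, of which 6 differed at least 1.5-fold and 3 at least 2-fold, and the median log2 ratio was -0.58. Over all genes 49.4% were lower, 6.75% at least 1.5-fold and 1.65% at least 2-fold, which is also the background for the slow partners. Those that were higher were Mylpf and Myl1, and with equal totals or quantile normalization all 12 were lower. The calcium pump Atp2a1 was lowest at 90.6 FPKM in Null and 210 FPKM in WT (-1.21), and the troponin Tnni2 had 472 FPKM in Null and 655 FPKM in WT. All 10 slow fibre partners were lower, 9 at least 1.5-fold and 4 at least 2-fold, and the median was -0.89. Among them the troponin Tnnt1 had 39.3 FPKM in Null and 86.3 FPKM in WT, and Csrp3, a muscle LIM protein, had 16.4 FPKM in Null and 46.2 FPKM in WT (-1.44). The summed slow partners stood at 11.9% of the summed fast partners in Null and at 17.9% in WT. The adult fast heavy chains stood at 1.93% of the fast partners in Null and 4.33% in WT, and Myh7 at 1.66% of the slow partners in Null and 3.17% in WT.

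**Figure D3:**
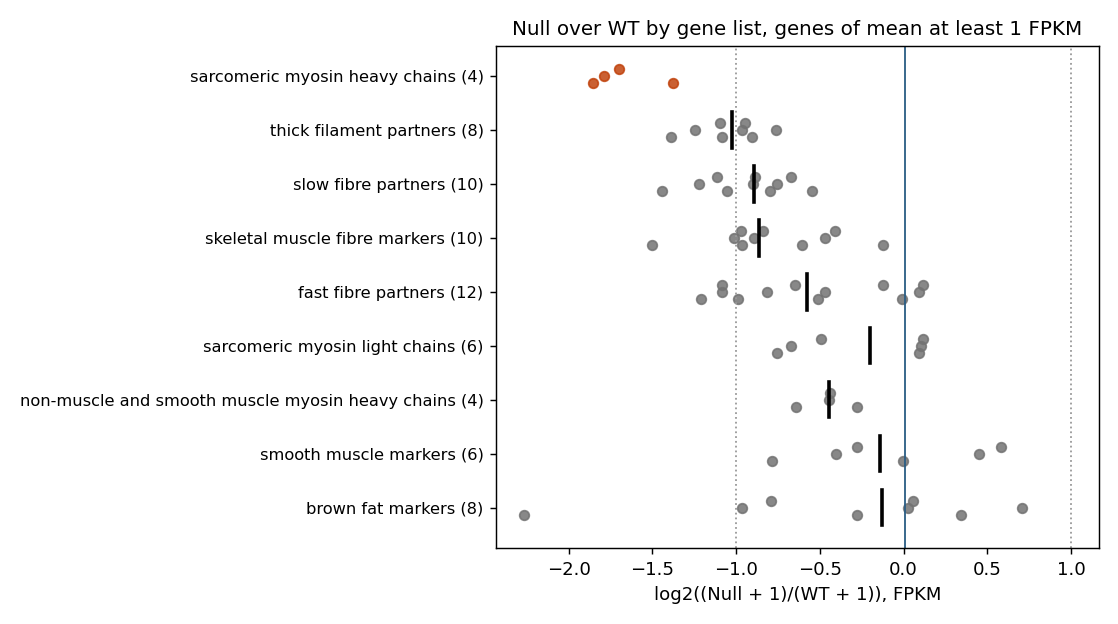
Log2((Null + 1)/(WT + 1)) of FPKM for genes of mean at least 1 FPKM, 1 point per gene, by list, with the number of genes in brackets; black bars are list medians (none is drawn for the sarcomeric heavy chains), the blue line is the median of all genes (0.01) and dotted lines mark 2-fold. The 4 sarcomeric heavy chains lie between -1.86 and -1.38, and the non-muscle and smooth muscle heavy chains between -0.64 and -0.28.

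Markers of skeletal muscle fibres were lower in Null too, to differing extents. All 10 fibre markers were lower in Null, 7 at least 1.5-fold and 2 at least 2-fold, against 49.4%, 6.75% and 1.65% of all genes. Their median log2 ratio was -0.87, and their summed level was 1113 FPKM in Null and 1814 FPKM in WT. Skeletal actin, Acta1, had 320 FPKM in Null and 647 FPKM in WT (-1.01), and creatine kinase, Ckm, had 354 FPKM in Null and 491 FPKM in WT (-0.47). The heavy chain sum was lower than these 2 genes, at 16.8% of Acta1 in Null and 24.5% in WT. It was not set apart from all fibre markers. The alpha-actinin gene Actn2, the lowest of the 10, had a log2 ratio of -1.50, near the heavy chain sum (-1.54) and below Myh4 (-1.38). Myoz1 was the highest of the 10, at -0.12. In bulk tissue fewer fibres and less RNA per fibre cannot be told apart, and the part of fibre content in the heavy chain difference was not tested.

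Markers of other striated and smooth muscle were low or mixed. None of the 7 heart muscle markers reached 1 FPKM; their sum was 0.748 FPKM in Null and 0.923 FPKM in WT, with Nppb and Myl7 listed at 0 in both pools and Mybpc3 in Null. Nor did any of the 6 markers of muscle stem cells and regenerating fibres, whose sum was 0.297 FPKM in Null and 0.869 FPKM in WT, with Tmem8c and Chrng listed at 0 in both and Myf5 in Null. Of 6 smooth muscle markers 4 were lower and 2 higher, with Acta2 at 20.0 FPKM in Null and 20.1 FPKM in WT. Markers of brown fat, the labelled tissue, were present in both pools: Ucp1, its uncoupling protein, had 2487 FPKM in Null and 3016 FPKM in WT. Of the 8 brown fat markers 4 were lower and 4 higher (6 lower with equal totals and with quantile normalization). Elovl3 was lowest (-2.27) and Adipoq highest (0.71). The 8 markers summed to 42087 FPKM in Null and 34501 FPKM in WT. Fabp4 made up most of that sum, with 34679.4 FPKM in Null and 27294.5 FPKM in WT. Summed over the 8 heavy chain genes, the level was 0.00914% of all FPKM in Null and 0.0311% in WT.

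Of the heavy chain genes 3 host a microRNA in an intron: mir-208a lies in Myh6, mir-208b in Myh7 and mir-499 in Myh7b. In heart and slow muscle these microRNAs are known to favour slow myosin. Their mature sequences are from RefSeq (GRCm38.p6), with the seed (bases 2 to 8) in capitals. They are shown because the seeds are nearly the same.
miR-208b-3p, chr14:54975710-54975731, minus strand: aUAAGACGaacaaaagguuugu
miR-208a-3p, chr14:54949072-54949093, minus strand: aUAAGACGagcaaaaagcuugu
miR-499-5p, chr2:155622893-155622913, plus strand: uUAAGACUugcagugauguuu

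The seed of miR-208b-3p is the same as that of miR-208a-3p, and 19 of 22 bases are equal. Counted from 1 at the 5′ end, the seed of miR-499-5p departs from it only by G8U, and 10 of the 21 positions compared are equal. miR-208a-3p is not among the 386 microRNAs listed and was not analysed here.

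Both listed microRNAs were lower in the Null library. miR-208b-3p had 64.0 RPM in Null (95% exact Poisson interval 60.9 to 67.3) and 435 RPM in WT (427 to 444), a ratio of 0.147 (0.139 to 0.155, exact Clopper-Pearson). miR-499-5p had 14.7 RPM in Null (13.2 to 16.3) and 69.8 RPM in WT (66.5 to 73.4), a ratio of 0.211 (0.187 to 0.236). These intervals cover counting error only and say nothing of the spread between mice. By the ratio, miR-208b-3p was number 4 and miR-499-5p number 7 from the lowest of the 323 microRNAs whose mean reached 10 RPM. Muscle microRNAs outside the myosin genes were lower too: miR-133b-3p had a ratio of 0.184, miR-206-3p of 0.232, miR-1a-3p of 0.281 and miR-133a-3p of 0.366. Of the 323 microRNAs 4.64% were lower by 2-fold or more, and their median ratio was 1.13. The authors' deposited table gives an adjusted p of 5.46e-15 for miR-208b-3p and of 7.14e-09 for miR-499-5p in a comparison of these 2 libraries. With 1 library per genotype these p-values cannot measure the spread between mice either. The targeted miR-193b-3p itself was at 11.5 RPM in Null and 3705 RPM in WT. miR-365-3p, which a second gene outside the locus also makes, was at 798 RPM in Null and 1442 RPM in WT.

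Host and microRNA were set side by side. Myh7 mRNA had a Null over WT ratio of 0.270, against 0.147 for miR-208b-3p. Myh7b mRNA had a ratio of 0.799, against 0.211 for miR-499-5p, but Myh7b was at 0.522 FPKM in Null and 0.654 FPKM in WT. The mRNA and microRNA values are from separate libraries on separate scales, and the difference between host and microRNA was not tested.

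**Figure D4:**
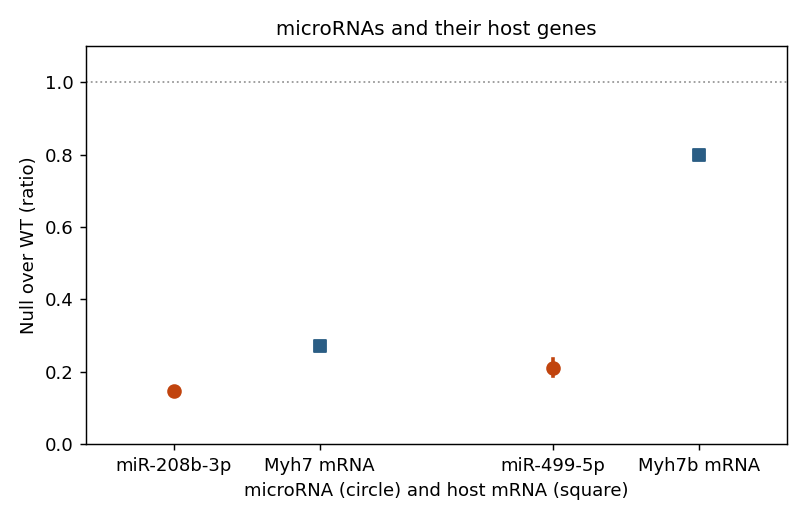
Ratio of Null to WT (linear axis) for miR-208b-3p and miR-499-5p (circles, with exact 95% counting intervals) and for their host mRNAs Myh7 and Myh7b (squares, no interval); the dotted line marks equal levels. The microRNAs stand at 0.147 and 0.211, Myh7 at 0.270 and Myh7b at 0.799.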

How the data were processed

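Samples were grouped by the genotype in their titles. Per the submitters' processing notes the genome build was mm9 and the tools included CASAVA, TopHat, BWA, edgeR and DESeq; which did what, and in which version, is not given in the sources used here. In the mRNA table the authors deposited levels as FPKM with 1 column per genotype, so the 3 libraries of a genotype were combined before deposit. Depth is unknown: of 676 genes under 0.05 FPKM but above 0 in both columns, 38 share the Null over WT ratio of 1.669, so steps of single reads show, but whole reads were not recovered from combined columns. MicroRNA values are headed RPM per the file headers and were treated as a signal, since they sum to 1578515 in Null and 1559381 in WT and are not shares of the listed reads; all 386 values per library were whole multiples of 1 step (0.0411 in Null, 0.0438 in WT) within 0.01 step, and implied reads gave the intervals. The intervals take 1 step as 1 read, which was not tested. The deposited table's ratio and p-value columns are the authors' own. Differences are log2 with a pseudocount of 1 FPKM over genes of mean at least 1 FPKM, and no test between genotypes was run. All 8 members are named; of each companion list the 3 most abundant genes and those of lowest and highest ratio could be named. Members and lists were chosen with earlier results of these data known. Alternatives changed the pseudocount, scaling, filter, fold and share denominator. Python 3.11.15 with pandas 2.3.3 and scipy 1.17.1 was used.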

Additional observations from a re-analysis of the deposited data

How the results depend on the processing

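The log2 ratio of the summed heavy chains (-1.54) was -1.55 with a pseudocount of 0.1 FPKM, -1.47 with 5 FPKM, -1.76 with both columns scaled to the same total, -1.59 with quantile normalization and, in an alternative chosen after seeing the data, -1.55 with no pseudocount. In every setting run Myh1, Myh2, Myh4 and Myh7 were the 4 members lower by the fold used and past the filter, with log2 ratios of -2.22 to -1.16 for Myh2, -2.07 to -1.33 for Myh1, -1.98 to -1.23 for Myh7 and -1.60 to -1.29 for Myh4. Over all genes, 191 were lower by 2-fold or more, against 297 with a pseudocount of 0.1 FPKM, 92 with 5 FPKM and 416 with equal totals, and 783 were lower by 1.5-fold or more; the cause was not tested. The adult fast share was 89.2% in Null and 88.1% in WT with quantile normalization, 58.3% in Null and 63.1% in WT without Myh4, and 87.7% in WT with Myh13 and Myh15 added. The Myh4 share was 74.0% in Null and 67.8% in WT with quantile normalization, and 66.7% in WT with Myh13 and Myh15 added. Divided by the median ratio of the 323 microRNAs whose mean reached 10 RPM, miR-208b-3p had a ratio of 0.130 and miR-499-5p of 0.186. No paired analysis was possible because the deposited mRNA table holds 1 column per genotype, and for the same reason leaving out single libraries was not run.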

Other observations

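Genes that fold and remove myosin were lower to differing extents. Of 7 such genes 6 passed the filter of a mean of at least 1 FPKM and had log2 ratios below 0, 4 of them at least 1.5-fold lower, and the median was -0.67. Over all genes 49.4% were lower and 6.75% at least 1.5-fold lower. Unc45b, the chaperone that folds the myosin head, was nearly level, with 9.79 FPKM in Null and 9.999 FPKM in WT (log2 ratio -0.03, and 0.03 with quantile normalization). Smyd1, a muscle methyltransferase that binds myosin, had 4.45 FPKM in Null and 7.59 FPKM in WT. Hsp90aa1, a chaperone that works with Unc45b, had 9.74 FPKM in Null and 16.4 FPKM in WT, and Trim54, a ubiquitin ligase of the sarcomere, was lowest at 1.94 FPKM in Null and 5.80 FPKM in WT (-1.21).

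Regulators known to set which myosin isoform a fibre makes differed less. Of 16 listed genes 13 passed the filter, with 10 lower and 3 higher in Null (11 lower with equal totals). Of the 13 genes, 3 were at least 1.5-fold lower, and the median log2 ratio was -0.30. Over all genes 49.4% were lower and 6.75% at least 1.5-fold lower. Mef2d, a transcription factor of muscle genes, was lowest at 19.0 FPKM in Null and 40.1 FPKM in WT (-1.04). The thyroid hormone receptor Thra had 35.8 FPKM in Null and 47.5 FPKM in WT.

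The genes whose log2 ratio was nearest to that of the summed heavy chains (-1.54), among 5727 other genes of mean at least 10 FPKM, were Megf9 (-1.52), Pdpr (-1.57), Actn2 (-1.50), Gpam (-1.50), Rbp4 (-1.49) and 2310069B03Rik (-1.61). Likeness here is over a single ratio of 2 pools. Actn2 encodes the alpha-actinin of the Z-disc and had 6.63 FPKM in Null and 20.6 FPKM in WT. Small RNA genes and genes listed at 0 in a pool were left out of the 5727 genes. Of the 5727 genes, 6 had a ratio at or below that of the summed heavy chains, which sets single genes against a sum.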
